A study of Mus musculus with 27 samples.

Results

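The genes described are those of the mitochondrial respiratory chain, taken complex by complex in mouse bone marrow-derived macrophages (BMDM) that met a Toll-like receptor (TLR) ligand once or for a second time. Members were the array probes whose gene name begins as the chain's subunits do: Nduf followed by a, b, c, s or v and a digit (complex I), Sdha to Sdhd (complex II), Uqcr (complex III), Cox4 to Cox8 (complex IV) and Atp5 (complex V). A total of 128 probes of 85 genes carried such a name, and 122 probes of 81 genes were, on at least 2 arrays of a group, well above background, out of 36781 named probes on the array. All 122 met that mark in each of the 9 groups. Complex I held 49 probes of 36 genes, complex II 6 probes of 4 genes, complex III 15 probes of 8 genes, complex IV 22 probes of 16 genes and complex V 30 probes of 17 genes. The name rule itself uses no measured value beyond this background mark. The name rule also takes in Cox4nb, Cox7a2l, Atp5s and Atp5sl, which are not subunits of the enzymes. Cox7a2l is known as a factor that joins complexes into supercomplexes, and RefSeq now lists Atp5sl as Dmac2, a factor of complex I assembly. Ndufa4 is counted with complex I by its name, although it is known as a subunit of complex IV.

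The macrophages were grown from bone marrow of female C57BL/6 mice aged 6 to 8 weeks in medium conditioned by L929 cells, which supply the growth factor CSF1. Naive cells received no ligand. Acute cells received 1 ligand for 4 h, and re-stimulated cells were first treated with the same ligand for 24 h and then given it again for 4 h. The ligands were LPS at 100 ng/ml (TLR4), Pam3CSK4 at 100 ng/ml (TLR2), Poly(I:C) at 10 µg/ml (TLR3) and CpG DNA (TLR9), for which the labels give 100 µM and the methods a lower concentration. For the arrays the methods describe each culture as marrow pooled from 3 mice, with a separate pool for each replicate, but elsewhere they name a different mouse for each replicate. Whether the groups of 1 replicate number shared a pool is not stated. Each of the 9 groups had 3 samples, hybridised to 27 one-colour Agilent arrays, and 25 carried deposited values: re-stimulated LPS and acute Pam3CSK4 kept 2 samples each. The values are log2 levels, normalized across arrays by the study. A level on the array is comparable between samples for 1 probe, not between probes, and in such bulk RNA fewer cells of a type and less RNA per cell cannot be told apart.

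The respiratory chain moves electrons from NADH (complex I) and from succinate (complex II) through ubiquinone, complex III and cytochrome c to oxygen at complex IV, and the proton gradient built on the way drives ATP synthesis by complex V. Most subunits are encoded in the nucleus, and a small core of complexes I, III, IV and V is encoded by mitochondrial DNA, so each enzyme needs transcripts from both genomes. Complex II is wholly nuclear and is also an enzyme of the Krebs cycle. Macrophages stimulated with LPS are known to turn from oxidative phosphorylation to glycolysis and to accumulate succinate, which is why these genes are of interest in endotoxin tolerance, the altered second response to a TLR ligand.

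Most member genes were housekeeping genes with small movements. The median range between the highest and the lowest of the 9 group means was 0.53 on the log2 scale, against a median spread within groups of 0.19 (pooled SD), and 8 of the 122 probes ranged over more than 1. Those 8 were Cox6a2 (3.08), 1 of the Ndufa3 probes (2.55), Cox7a1 (1.88), 1 of the Ndufv3 probes (1.32), Atp5sl (1.18), Atp5s (1.17), 1 of the Cox7c probes (1.10) and 1 of the Ndufb5 probes (1.06). Acute LPS was the lowest group for 56 probes (19 in complex I, 4 in II, 9 in III, 8 in IV and 16 in V), acute CpG for 28 and re-stimulated Poly(I:C) for 21. Re-stimulated Pam3CSK4 was the highest group for 44 probes and naive for 36. These counts are on the deposited scale, and the same counts over all probes are not given here. The acute LPS arrays also had slides of their own, as described below.

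Promoters of the members shared letters that are known from nuclear genes for mitochondrial proteins. RefSeq promoters (GRCm38.p6, 250 bases before and 50 after the start) were found for 67 of the 81 genes and searched on both strands. The NRF1 motif, named for nuclear respiratory factor 1 and searched as GCGCANGCG, was in 29.9% of the member promoters and in 6.27% of all 27025 promoters. The ETS-type motif CCGGAAG, bound by GABP among others, was in 23.9% and 9.04%, and the YY1 motif AAGATGGC in 16.4% and 2.85%. At least 1 of these 3 was in 58.2% of the member promoters and in 16.2% of all. Of the motifs of inflammatory factors, the IRF type, searched as GAAANNGAA, was in 10.4% of the member promoters against 8.55% of all, and the NF-kB motif, searched as GGGANTTTC, in 1.49% (1 of 67) against 1.12%. Matches of the NRF1, ETS and YY1 motifs overlapped each other in 4 of the 27025 promoters. These counts describe letters in a window and not binding. The promoters of 4 genes to which the results below return are shown with matches in capitals, and that of Cox7a1 holds none of the 5 motifs.
Sdhb, chr4:140961021-140961320 (+), ETS: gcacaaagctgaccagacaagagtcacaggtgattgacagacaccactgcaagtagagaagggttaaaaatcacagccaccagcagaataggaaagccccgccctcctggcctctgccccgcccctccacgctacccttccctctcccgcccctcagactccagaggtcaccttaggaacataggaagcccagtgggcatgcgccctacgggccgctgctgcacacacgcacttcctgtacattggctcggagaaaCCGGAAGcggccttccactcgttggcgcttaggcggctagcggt
Sdhd, chr9:50603800-50604099 (-), NRF1 and then ETS on the other strand: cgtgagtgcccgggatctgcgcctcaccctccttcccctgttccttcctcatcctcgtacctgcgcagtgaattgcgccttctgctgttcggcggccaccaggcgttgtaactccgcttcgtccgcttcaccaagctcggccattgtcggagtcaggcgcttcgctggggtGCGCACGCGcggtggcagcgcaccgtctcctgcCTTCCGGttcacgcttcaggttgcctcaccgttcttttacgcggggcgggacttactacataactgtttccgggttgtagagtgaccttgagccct
Atp5sl (Dmac2), chr7:25619243-25619542 (+), YY1: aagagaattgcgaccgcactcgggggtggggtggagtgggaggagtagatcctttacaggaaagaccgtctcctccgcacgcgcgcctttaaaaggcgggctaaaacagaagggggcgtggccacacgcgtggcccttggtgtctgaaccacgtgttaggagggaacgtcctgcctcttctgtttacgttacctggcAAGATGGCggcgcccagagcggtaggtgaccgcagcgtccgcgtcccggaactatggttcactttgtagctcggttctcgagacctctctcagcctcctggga
Cox7a1, chr7:30183921-30184220 (+), no match: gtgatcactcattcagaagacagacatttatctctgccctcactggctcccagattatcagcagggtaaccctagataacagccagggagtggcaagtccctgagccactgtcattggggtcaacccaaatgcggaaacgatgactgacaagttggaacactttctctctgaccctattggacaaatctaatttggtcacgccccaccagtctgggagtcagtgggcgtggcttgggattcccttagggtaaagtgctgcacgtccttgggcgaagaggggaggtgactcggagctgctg

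Before the comparisons, some features of the arrays bear on them. Samples of the same replicate number lay on 1 slide (slides 4, 5 and 6) in all groups but acute LPS, whose 3 arrays were on slides 1, 2 and 3 of another scan and array design file, so slide and acute LPS cannot be told apart. The cells carried macrophage markers: 8 of the 8 measured were well above background in all 9 groups. Some markers moved in groups described here: 1 of the 3 Csf1r probes had a mean of 14.46 in naive cells and 12.68 after acute LPS, 1 of the 2 probes of the dendritic cell gene Zbtb46 had 4.05 and 10.28, and the fibroblast gene Dcn had 4.78 in naive cells, 9.01 in re-stimulated LPS and 7.80 in re-stimulated Poly(I:C). Of the other defining markers Cd209a of dendritic cells and Col1a1, Col3a1 and Pdgfra of fibroblasts were not well above background in any group. The dendritic cell gene Flt3 was so in 4 groups on 1 of its 3 probes (means of 3.97 in naive cells, 5.72 in re-stimulated LPS and 5.30 in re-stimulated CpG) and in 1 group on another, and the fibroblast gene Col1a2 was so in 8 groups (group means from 5.27 to 6.91). Of B and T cell genes, a probe each of Cd79a, Cd79b and Cd3e was well above background in all 9 groups. Cd79b read 7.43, 7.62 and 8.96 in naive cells. It read 10.29, 10.20 and 7.56 in re-stimulated Pam3CSK4 and 10.11, 9.04 and 7.20 in re-stimulated CpG. Among genes of neutrophils and their precursors (Elane, Mpo, Prtn3, Ly6g, Camp and Ngp), most moved with replicate and slide. The neutrophil surface gene Ly6g ranged from 8.74 to 12.78 on the 15 arrays of replicates 1 and 2 outside acute LPS, from 1.82 to 6.42 on the 7 arrays of replicate 3, and from 2.96 to 3.78 on the 3 acute LPS arrays. Elane did not follow this order, at 11.38 to 12.73, 11.08 to 11.92 and 11.48 to 12.10 on the same arrays, and 1 of the Camp probes was flat in re-stimulated CpG cells (9.48, 9.41 and 9.50). Ly6g moved with treatment as well: it read 12.29, 12.78 and 6.42 in re-stimulated Poly(I:C) against 8.91, 9.60 and 2.54 in naive cells, higher on each of the 3 slides, and 11.67 and 12.77 in re-stimulated LPS. Over the whole list the median level was 8.58 to 11.71, 3.37 to 4.97 and 3.44 to 4.72 on the same arrays, the log2 of its summed level was 12.74 to 15.06, 11.71 to 12.23 and 11.56 to 12.18, and its probe of highest mean signal was that of Elane. A probe of the macrophage gene Emr1 read 14.12, 13.47 and 16.65 on the 3 re-stimulated Poly(I:C) arrays, against 15.16, 15.19 and 17.02 on the naive arrays. Naive replicate 3 also stood apart in Irg1, a gene that macrophages switch on after TLR stimulation: it read 13.77 there against 8.09 and 9.08 on the other naive arrays, and 16.47 to 18.03 on the stimulated arrays. The part of these cells, arrays or slides in the results was not tested, and counts without replicate 3 are given where they differ by more than 1.5 times.

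The first comparison asked what a single exposure did to the chain. After acute LPS a minority of the probes were lower, most of them from accessory subunits of complex I. A probe passed the test with a limma adjusted p (Benjamini-Hochberg over all probes tested) below 0.05 and a change of at least 1.5-fold. Lower after acute LPS were 16 of the 122 probes, or 13.1%, and higher were 0, with 42 at an unadjusted p below 0.05. Of all 22416 probes tested, 17.3% were lower and 13.5% higher, so the members' share of lower probes was below that of the array. The 16 fell to complex I (10), II (2), III (2) and V (2). Complex IV had 0 among its 22 probes, 7 of them at an unadjusted p below 0.05. On the deposited scale 106 of the 122 probes had lower means than in naive cells, with a median of -0.34 against -0.09 over all probes, but the median was -0.00 when each array was scaled by its 75th percentile, and 1 probe then passed higher (0.820%, against 13.7% of all probes) and 4 lower (3.28%, against 17.7%). Without acute LPS replicate 2 the number of calls was 2, and without replicate 3 of both groups 4 were higher and 15 lower, against 20.3% and 28.4% of all probes.

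Complex I after acute LPS was led by Ndufv3, an accessory subunit of the NADH-oxidizing module. Of its 3 probes, 1 (chr17:31665148-31665207, mm9) read 9.22, 9.25 and 9.37 in naive cells and 8.06, 8.09 and 7.73 after acute LPS. The change of -1.32 ± 0.18 (SE) had an adjusted p of 0.00359 and stayed at -1.23 with 75th percentile scaling. Another Ndufv3 probe, with a naive mean of 14.74, fell by 0.62 (adjusted p = 0.0265), by only 0.14 with the other scaling, and the remaining probe was at -0.16. The other complex I genes lower after acute LPS were accessory subunits too: Ndufb10 (-0.88), Ndufb3 (-0.78), Ndufb9 (-0.73), Ndufb4 (-0.70), Ndufa8 (-0.70), Ndufb11 (-0.66, and -0.59 on a probe that matched no RefSeq transcript, with a dim probe at 0.21) and Ndufs6 (-0.65). Of 16 alternatives run, 12 kept the Ndufb10 call, 10 that of Ndufb3 and 7 that of Ndufb9. The calls of Ndufs6, Ndufa8 and Ndufb4 were kept in 6, 5 and 4, and those of Ndufb11 in 5 and 4. Core subunits named next did not pass the test, of which Ndufv1, Ndufv2, Ndufs1, Ndufs7 and Ndufs8 carry the flavin or iron-sulphur clusters. Their changes were -0.38 for Ndufv1, -0.16 for Ndufv2, -0.13 for Ndufs1, -0.24 for Ndufs3, -0.30 for Ndufs7 and -0.12 for Ndufs8.

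In complex II the iron-sulphur subunit Sdhb and the membrane anchor Sdhd were lower. Sdhb (chr4:140535052-140535108, mm9) read 15.26, 15.13 and 15.28 in naive cells and 14.70, 14.69 and 14.43 after acute LPS, a change of -0.62 ± 0.17 (adjusted p = 0.0344). Sdhd (chr9:50404630-50404689) read 14.66, 14.54 and 14.38, then 14.02, 13.86 and 13.94, a change of -0.59 ± 0.16 (adjusted p = 0.0386). With 75th percentile scaling the changes of Sdhb and Sdhd shrank, to -0.32 and -0.17. Of 16 alternatives, 12 lost the Sdhb call (adjusted p up to 0.347) and 11 the Sdhd call (up to 0.520). The flavoprotein Sdha was at -0.30 (adjusted p = 0.208). In complex III both probes of Uqcr11, a small subunit, were lower (-0.76, and -0.83 on a probe that matched no RefSeq transcript), whereas the core proteins Uqcrc1 (-0.39) and Uqcrc2 (-0.12) and the Rieske protein Uqcrfs1 (-0.23) did not pass. Of 16 alternatives, 8 and 6 lost the calls of the Uqcr11 probes. In complex V a probe of the peripheral stalk subunit Atp5h was at -0.59 (adjusted p = 0.0310), a call kept in 6 of 16 alternatives. The group means of the other Atp5h probe ranged over only 0.35 in all. Atp5a1 (-0.21) and the catalytic Atp5b (-0.06) did not pass.

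Atp5sl (Dmac2) and the first Ndufv3 probe were the members that passed after 3 of the 4 acute ligands. Atp5sl (chr7:26410510-26410569, mm9) read 11.15, 11.21 and 11.05 in naive cells. It read 10.09, 10.23 and 9.80 after acute LPS, 9.87, 9.88 and 10.13 after acute CpG, 10.17, 10.09 and 10.46 after acute Poly(I:C) and 10.03 and 10.52 after acute Pam3CSK4. Every acute sample lay below every naive sample. The changes were -1.10 (adjusted p = 0.00717), -1.18 (0.0174), -0.90 (0.0335) and -0.86 (0.251, with 2 arrays), and they stayed at -1.01, -0.98 and -0.82 for the first 3 with 75th percentile scaling. For that Ndufv3 probe they were -1.32, -0.88 (adjusted p = 0.0266), -0.83 (0.0407) and -0.52 (0.369) in the same order. With the replicate number as a block the adjusted p was 0.0533 for Ndufv3 after acute CpG and 0.0578 for Atp5sl after acute Poly(I:C), while Atp5sl after CpG (0.0452) and Ndufv3 after Poly(I:C) (0.0482) still passed. These comparisons share their naive samples.

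Ndufv3 and Atp5sl were also the only members to pass after acute CpG or acute Poly(I:C). After acute CpG 2 of the 122 probes were lower (1.64%), against 4.20% of all 21398 tested, and 24 members had an unadjusted p below 0.05. After acute Poly(I:C) 2 were lower (1.64%), against 3.41% of 21619, and 11 were at an unadjusted p below 0.05. After acute Pam3CSK4, with 2 arrays, no probe of the array passed (0.00%), and 2 members were at an unadjusted p below 0.05. The direction was like that of LPS on the deposited scale: 111, 113 and 100 of the 122 probes had lower means after CpG, Poly(I:C) and Pam3CSK4, with medians of -0.25, -0.21 and -0.15, which turned to 0.17, 0.08 and 0.13 with 75th percentile scaling. Over all probes tested the deposited medians were -0.10, -0.13 and -0.03. Within the slides that held both groups the deposited medians were -0.28, -0.28 and -0.22 after CpG, -0.27, -0.26 and -0.11 after Poly(I:C) and -0.29 and -0.09 after Pam3CSK4. Those of all probes on the same slides were -0.19, -0.13 and 0.01, then -0.22, -0.18 and -0.01, and then -0.10 and 0.07. Complex II had the lowest of the 5 complex medians for CpG (-0.36) and Pam3CSK4 (-0.31), and complex I for Poly(I:C) (-0.25). Without replicate 3 of both groups 1 member was higher and 4 lower for Poly(I:C), against 11.5% and 18.3% of all probes, and 1 was lower for Pam3CSK4, against 8.53%.

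**Figure D1:**
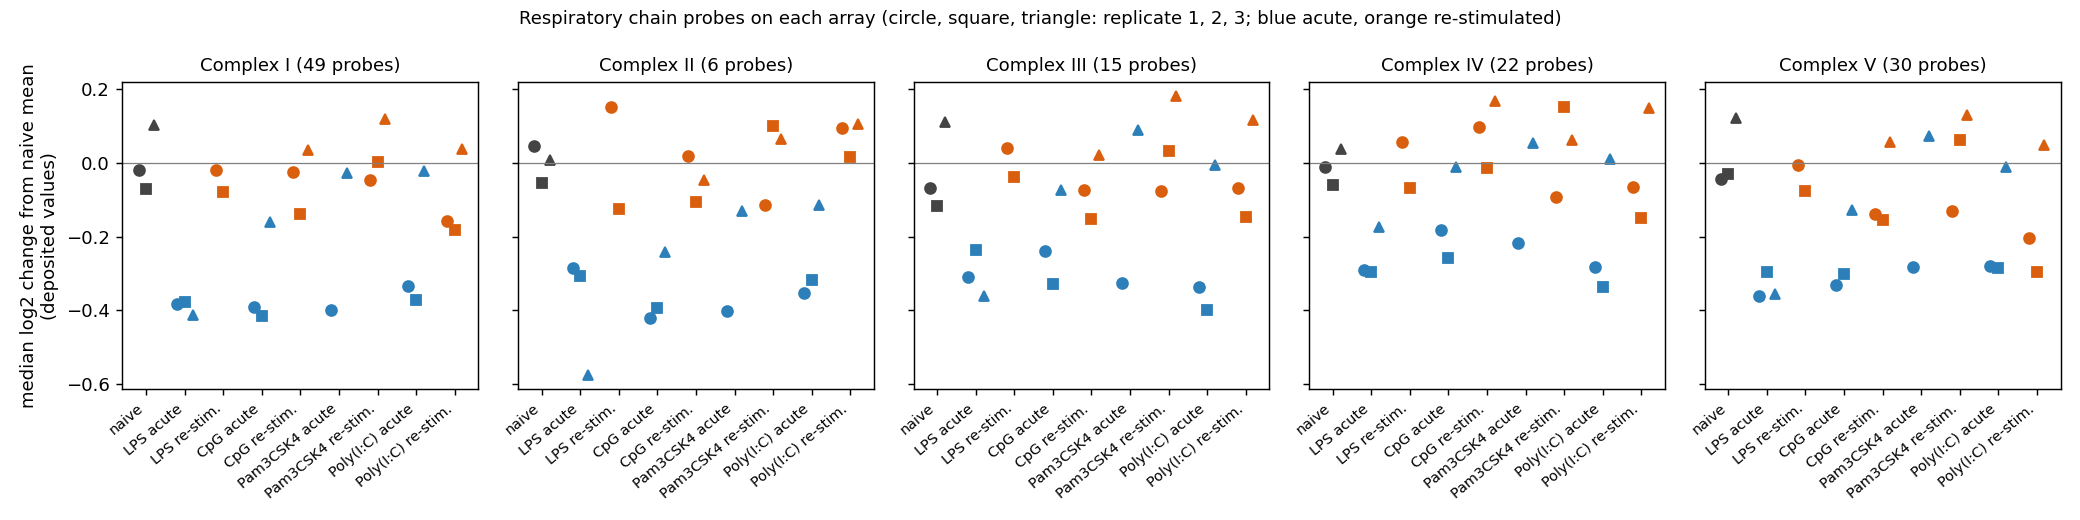
Median log2 change from the naive mean for the probes of each complex on each of the 25 arrays (deposited values; circle, square and triangle are replicates 1, 2 and 3; grey naive, blue acute, orange re-stimulated). On this scale the acute arrays of replicates 1 and 2 lie between -0.41 and -0.33 in complex I and the re-stimulated ones between -0.18 and 0.00, those of replicate 3 lie at -0.41, -0.16, -0.03 and -0.02 for acute LPS, CpG, Pam3CSK4 and Poly(I:C) and between 0.03 and 0.12 for re-stimulated cells, and with 75th percentile scaling all acute arrays lie between -0.25 and 0.37.

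The second comparison asked how a second exposure differed from the first. The median of the chain was higher in re-stimulated than in acutely stimulated cells for each ligand, in the deposited values and with 75th percentile scaling of the same arrays, although few single probes passed the test outside LPS. Higher means were seen for 96 of the 122 probes with LPS (median 0.23, or 0.32 with 75th percentile scaling), 109 with CpG (0.22 and 0.27), 106 with Pam3CSK4 (0.19 and 0.36) and 81 with Poly(I:C) (0.11 and 0.10). Over all probes tested the deposited medians were 0.06, 0.07, 0.03 and 0.04. Leaving out 1 array moved the median for Pam3CSK4 to between 0.0525 (without acute replicate 1) and 0.36 (without acute replicate 3), and that for Poly(I:C) to between 0.0338 (without re-stimulated replicate 3) and 0.21 (without acute replicate 3). A total of 61 probes were higher for all 4 ligands and 4 were lower for all 4. Within slides the median of the 122 was 0.31, 0.23 and 0.16 with CpG, 0.26 and 0.10 with Pam3CSK4 and 0.16, 0.13 and 0.09 with Poly(I:C), above the median of all probes on each slide (0.01 to 0.10). For LPS no slide held both groups. The LPS direction also turned, to a median of -0.25, when the 2 arrays without deposited values were put back from their scanner signals. Those arrays stood apart, with 92.3% (re-stimulated LPS) and 99.9% (acute Pam3CSK4) of probes well above background. The latter also had 22.6% of spots marked non-uniform.

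**Figure D2:**
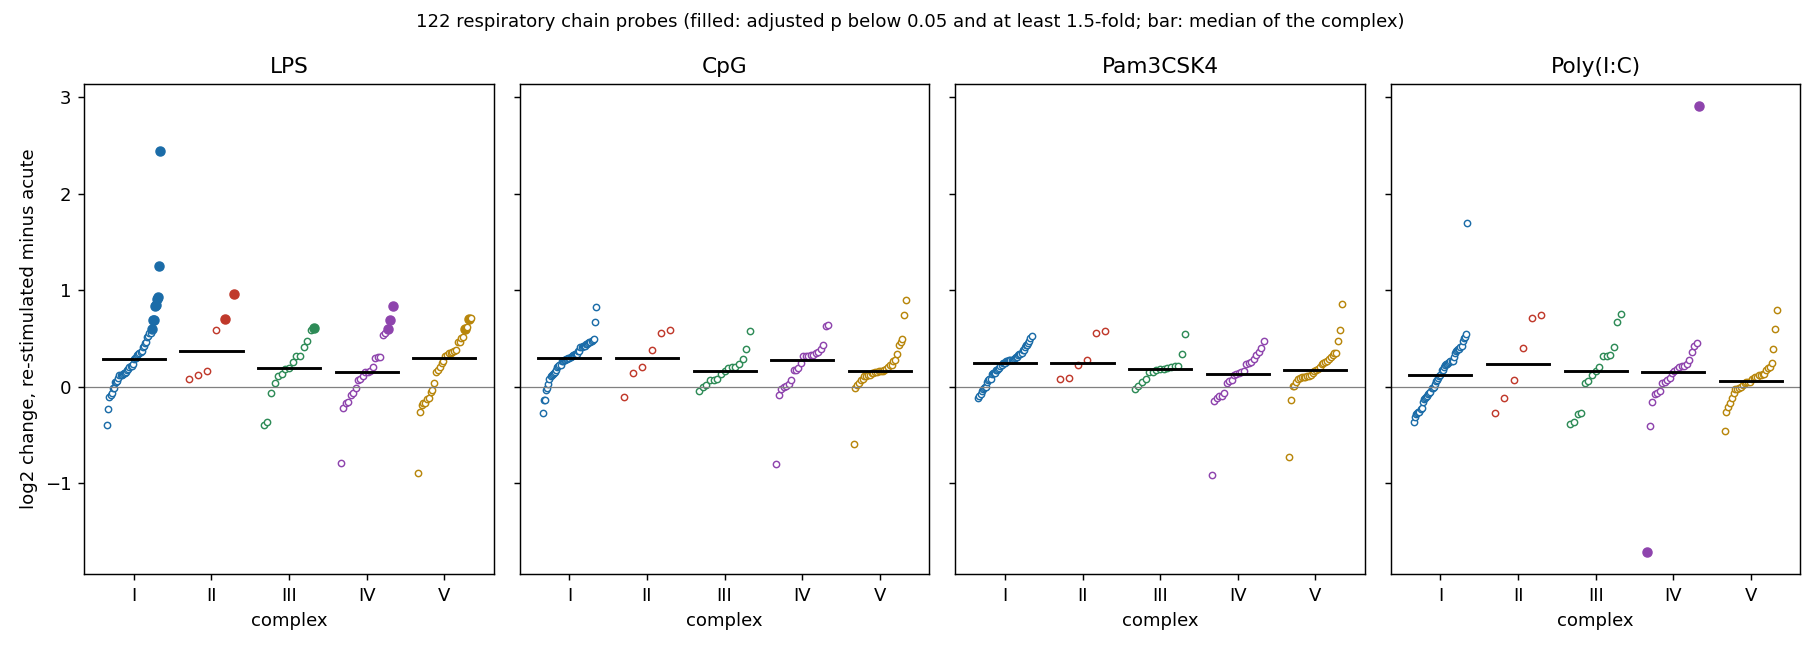
Log2 change of each of the 122 probes from acute to re-stimulated cells for each ligand, by complex (vertical axis log2 change; filled points passed the test, open points did not; black bars are medians). The medians lie above 0 in every complex and ligand, and the filled points number 17 with LPS, 0 with CpG and with Pam3CSK4 and 2 with Poly(I:C).

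For LPS 17 probes of the chain were higher after re-stimulation (13.9%) and 0 lower, with 35 at an unadjusted p below 0.05. Over the array 21.1% of 21599 probes were higher and 17.3% lower, so the members' share of higher probes was below that of the array. Without LPS re-stimulated replicate 2 the count was 2, and with all 27 arrays and 75th percentile scaling it was 0. The 17 lay in complex I (9), II (2), III (1), IV (3) and V (2). In complex I a probe named Ndufa3, an accessory subunit, had the largest change: 5.07, 4.87 and 4.97 after acute LPS and 7.65 and 7.17 after re-stimulation, or +2.44 ± 0.22 (adjusted p = 0.000875). That probe was dim and matched no RefSeq transcript, and the other 2 Ndufa3 probes were at +0.15 and +0.20. The first Ndufv3 probe read 9.29 and 9.13 (+1.25, adjusted p = 0.00566), and its mean was at -0.08 against naive. Ndufb9 went from 13.93, 13.94 and 14.20 to 14.997 and 14.91 (+0.93, adjusted p = 0.0120). Ndufa11 (+0.91), Ndufs6 (+0.84), Ndufb3 (+0.83), Ndufa8 (+0.69), Ndufc1 (+0.69) and Ndufb8 (+0.60) completed the list, of which Ndufb8 stood at -0.06 with all 27 arrays and 75th percentile scaling. Of 14 alternatives, 9, 7 and 10 lost the calls of Ndufa8, Ndufc1 and Ndufb8, and 1 to 3 lost each of the others in complex I.

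In complex II both Sdhb and Sdhd were higher after LPS re-stimulation. Sdhd read 14.82 and 14.98 after LPS re-stimulation, above all acute LPS and all naive samples (+0.96 over acute, adjusted p = 0.00912). Sdhb read 15.48 and 15.13 (+0.70, adjusted p = 0.0406). In 14 alternatives the Sdhd call was lost in 2 and the Sdhb call in 7. For the other ligands Sdhb went from 14.66, 14.61 and 14.72 to 15.41, 15.12 and 15.23 with CpG, from 14.54 and 14.96 to 15.22, 15.37 and 15.34 with Pam3CSK4, and from 14.69, 14.64 and 14.96 to 15.50, 15.55 and 15.39 with Poly(I:C). In none of the 4 did acute and re-stimulated samples overlap. The changes were +0.58 (adjusted p = 0.0898), +0.55 (0.353) and +0.72 (0.0552), and a second Sdhb probe gave +0.59, +0.56, +0.58 and +0.75 for LPS, CpG, Pam3CSK4 and Poly(I:C), none past the test. Sdhd changed less with the other ligands (+0.14, +0.09 and +0.40 for CpG, Pam3CSK4 and Poly(I:C)), and Sdha stayed between -0.11 and +0.08.

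The remaining LPS calls were Uqcr10 in complex III (+0.61), Cox7c (+0.83, a dim probe whose brighter counterparts were at +0.30 and +0.15), Cox7a2 (+0.70) and Cox5b (+0.60) in complex IV, and Atp5sl (+0.70) and the stalk subunit Atp5j (+0.60) in the complex V list. The Cox5b probe that passed matched no RefSeq transcript, and the one that did was at +0.56 (adjusted p = 0.0734). Of 14 alternatives, 6 (for Cox7a2) to 11 (for Cox7c and Atp5j) lost these remaining LPS calls. For CpG 0 members passed (4.68% of 20127 probes did), with 17 at an unadjusted p below 0.05. For Pam3CSK4 no probe of the array passed (0.00%), with 4 members at an unadjusted p below 0.05. With Poly(I:C) 1 member was higher and 1 lower, both of complex IV, where 3.58% of all 20869 probes were higher and 3.49% lower. Without replicate 3 of both groups 10 were higher and 1 lower, against 17.6% and 13.8% of all probes. With slide as a random block more members passed for CpG, Pam3CSK4 and Poly(I:C), as counted under the processing below.

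**Figure D3:**
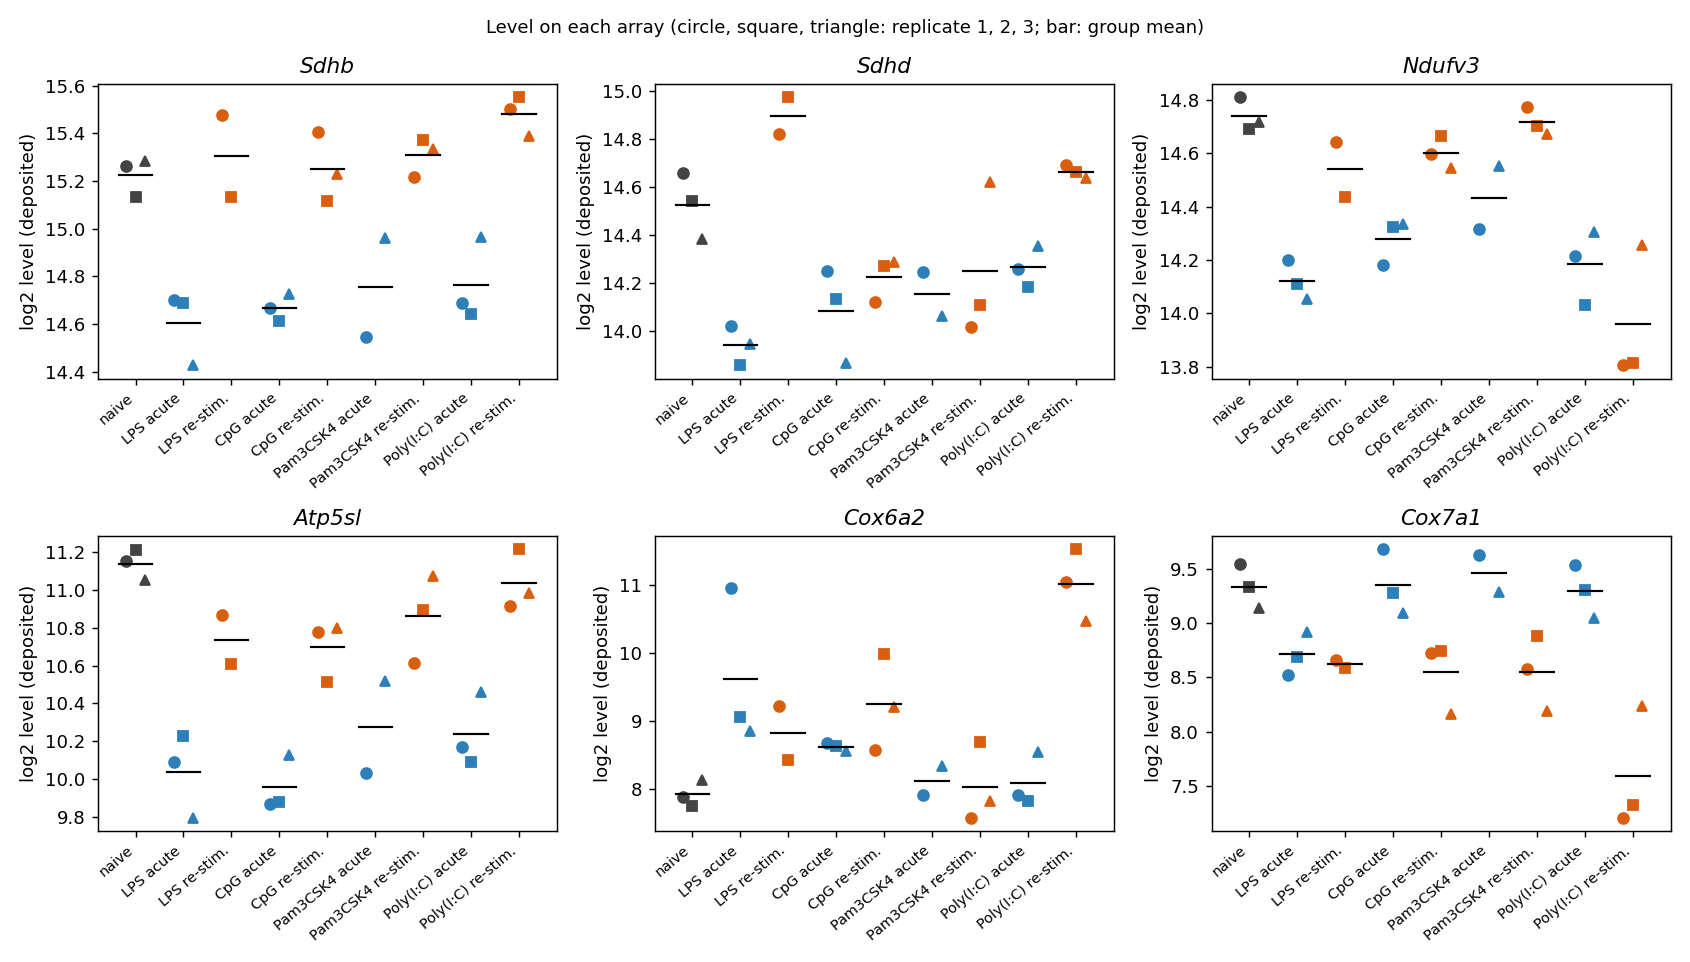
Log2 level of 6 genes on each of the 25 arrays (vertical axes differ; circle, square and triangle are replicates 1, 2 and 3; black bars are group means). Sdhb, Sdhd, Ndufv3 (the probe with a naive mean of 14.74) and Atp5sl have lower means in the 4 acute groups than in naive cells on the deposited scale, Cox6a2 is highest in re-stimulated Poly(I:C) at 10.46 to 11.52, and Cox7a1 is lowest there at 7.20 to 8.24.

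Complex IV held the largest single change among the 122 probes, that of the tissue isoform Cox6a2 after Poly(I:C) re-stimulation, and a change the other way in a second tissue isoform, Cox7a1. Cox6a2 encodes the form of subunit 6a known from heart and skeletal muscle, and Cox6a1 the form of most other tissues. Cox6a2 (chr7:135349160-135349219, mm9) read 7.88, 7.74 and 8.13 in naive cells, 7.91, 7.83 and 8.54 after acute Poly(I:C) and 11.03, 11.52 and 10.46 after Poly(I:C) re-stimulation. The re-stimulated samples lay above all samples of every other group but 1 acute LPS sample. The mean was 11.00 ± 0.53 (SD, n = 3) against 7.92 ± 0.20 (n = 3) in naive cells, an 8.48-fold difference (log2 change +3.08 ± 0.30, adjusted p = 0.00684), and +2.91 over acute Poly(I:C) (adjusted p = 0.0180). The call against naive remained in all 16 alternatives run, with changes from +2.79 to +3.46, while that over acute Poly(I:C) was lost in 4 of 15, each of which left out 1 array (adjusted p from 0.0720 to 0.0847). Acute LPS samples spread widely, at 10.95, 9.05 and 8.85 (+1.70, adjusted p = 0.0630), re-stimulated CpG samples read 8.57, 9.98 and 9.20 (+1.33, adjusted p = 0.0587), and re-stimulated Pam3CSK4 samples read 7.58, 8.68 and 7.82 (+0.11). Cox6a1 stayed between -0.17 and +0.28 of naive in the 8 stimulated groups, none past the test.

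Muscle markers did not accompany Cox6a2. Of Ckm, Acta1, Myh1 and Tnnt3, 0 were well above background in all groups and 2 in any group (Acta1 in acute LPS, Tnnt3 in naive and acute Poly(I:C) cells), and the median of the list stayed between 2.27 and 4.28 on the arrays of all groups. The neighbouring gene Itgad overlaps Cox6a2 by 70 bases in RefSeq, and its probe was well above background on 2 of the 25 arrays. Armc5 nearby was at +0.53 in re-stimulated Poly(I:C) against naive (adjusted p = 0.343). The neutrophil gene Ly6g was higher on the same arrays, as given above, and the log2 of the summed level of the neutrophil list was 14.002, 14.67 and 11.71 there against 13.44, 13.87 and 11.92 in naive cells. Its part in the changes of Cox6a2, Cox7a1 and the mitochondrial transcripts was not tested.

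Cox7a1, the heart and skeletal muscle form of subunit 7a, was lower. It read 9.55, 9.33 and 9.14 in naive cells and 9.54, 9.31 and 9.05 after acute Poly(I:C), and 7.20, 7.32 and 8.24 after Poly(I:C) re-stimulation. The change was -1.75 ± 0.32 from naive (adjusted p = 0.0248) and -1.71 from acute (adjusted p = 0.0369), and with the replicate number as a block the adjusted p was 0.0619 and 0.0524. The call against naive was lost in 5 of 16 alternatives and that against acute in 6 of 15. Re-stimulated samples of the other ligands also read below every naive sample: 8.66 and 8.58 with LPS, 8.73, 8.75 and 8.17 with CpG, and 8.58, 8.88 and 8.19 with Pam3CSK4. Their changes of -0.72, -0.79 and -0.79 did not pass (adjusted p = 0.0862, 0.0627 and 0.0973). The form of most other tissues, Cox7a2, was at -0.00 in re-stimulated Poly(I:C), and the probes of Cox7a2l were between -0.33 and -0.27. Cox4i1 and its hypoxia-linked paralogue Cox4i2 did not pass in any of the 12 comparisons with naive or acute cells. Cox6b2, known from testis, was higher in re-stimulated CpG than in naive cells (+0.96, adjusted p = 0.0286), a call lost in 6 of 16 alternatives.

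Re-stimulated cells against naive cells differed little in most of the chain. With LPS 0 members were higher and 1 lower, where 4.54% of all 21382 probes were higher and 4.15% lower. With CpG 2 were higher and 1 lower, against 7.97% and 8.45% of 21538. With Pam3CSK4 0 passed, against 7.58% of 21396 in either direction, with 8 at an unadjusted p below 0.05. With Poly(I:C) 1 was higher and 4 lower, against 5.75% and 6.15% of 21674. The members' share was below that of the array in each, on the deposited scale. Without replicate 3 of both groups 1, 2, 1 and 4 members were higher in the same order, against 13.6%, 12.9%, 11.8% and 14.2% of all probes, and 3, 3, 1 and 9 lower, against 16.2%, 17.0%, 16.5% and 19.6%, so the members' share was again below that of the array. The lower call for LPS and CpG was 1 probe of Atp5g1 (-0.83 and -0.84, adjusted p = 0.0499 and 0.0263), which encodes the c subunit of the ATP synthase ring. That probe matched no RefSeq transcript, and the one that did was at -0.10 and +0.18. Atp5s was higher in re-stimulated CpG (+0.94, adjusted p = 0.0364). With the replicate number as a block the adjusted p in re-stimulated CpG was 0.0770 for Atp5s and 0.0558 for Atp5g1. For Poly(I:C) the lower calls besides Cox7a1 were in complex I: the Ndufv3 probe with a naive mean of 14.74, from 14.81, 14.69 and 14.72 to 13.81, 13.81 and 14.26 (-0.78, adjusted p = 0.0496), and 2 of the 3 probes of Ndufb11 (-0.76 and -0.76), of which 1 matched no RefSeq transcript. With the replicate number as a block the adjusted p was 0.0792 for that Ndufv3 probe and 0.0583 and 0.0771 for those of Ndufb11.

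The level of the whole list in re-stimulated against naive cells rested on the scaling. The deposited medians were -0.04 with LPS, -0.06 with CpG, +0.04 with Pam3CSK4 and -0.09 with Poly(I:C), and 0.36, 0.42, 0.44 and 0.17 with 75th percentile scaling. With that scaling 8 members passed higher for LPS (6.56%, against 9.83% of all probes), 26 for CpG (21.3%, against 14.4%), 14 for Pam3CSK4 (11.5%, against 8.76%) and 6 for Poly(I:C) (4.92%, against 7.84%), so that the share was above that of the array for CpG and Pam3CSK4. Lower were 0, 0, 0 and 1. Other bright probes shifted in the same way: 3895 non-member probes with a mean level of at least 12 had deposited medians of -0.17, -0.09, -0.06 and -0.12, and 0.25, 0.39, 0.37 and 0.17 with that scaling. One naive array, replicate 3, had 74.6% of its probes well above background, against 42.1 to 54.3% on the other arrays with deposited values.

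**Figure D4:**
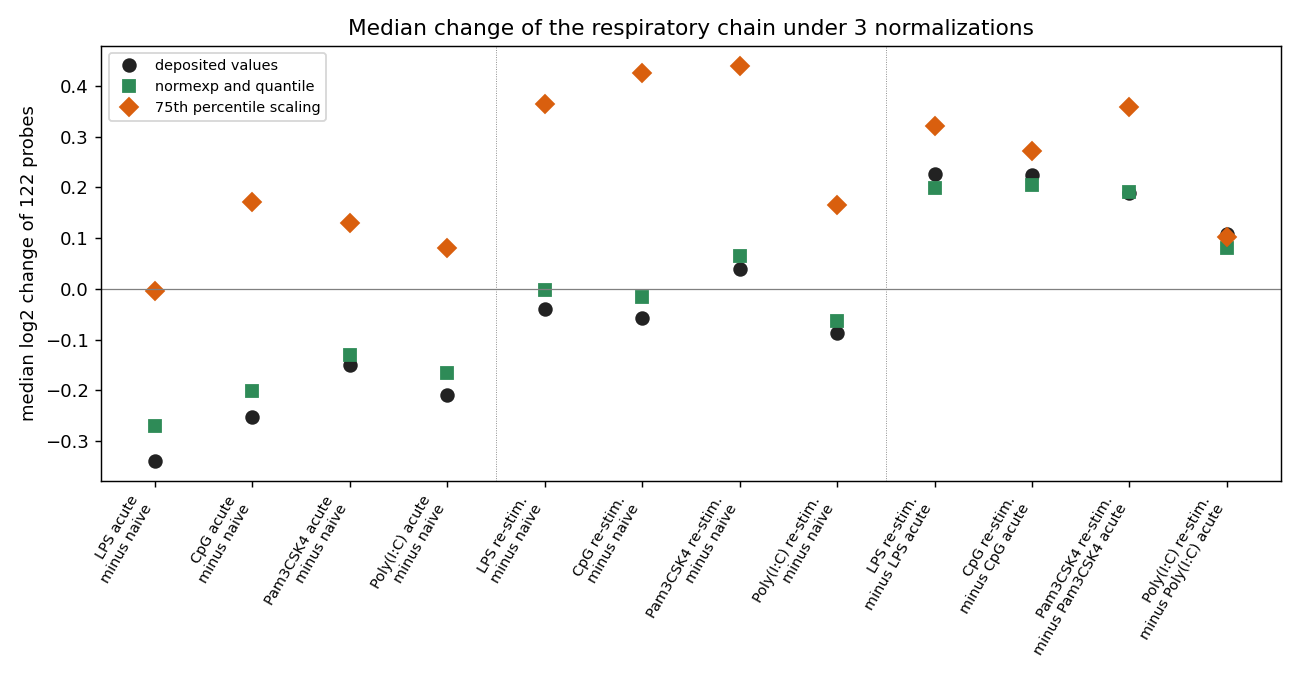
Median log2 change of the 122 probes in 12 comparisons under 3 normalizations of the same 25 arrays (vertical axis log2 change; each symbol is 1 normalization). Against naive cells the medians with 75th percentile scaling lie near 0 for acute LPS and above 0 otherwise, where most deposited ones lie below it. The changes from acute to re-stimulated cells lie above 0 under all 3.

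The subunits encoded by mitochondrial DNA are 13 genes that the name rule does not take in. They were each measured by 1 probe, all well above background. The array design placed 7 probes on the mitochondrial genome and 6 on chromosome 1, where mm9 holds a copy of part of it, so the latter positions mark the copy and not the gene. Whether these 6 probes read the mitochondrial transcript alone was not tested. The probes of CYTB (the cytochrome b of complex III), ND2, ND3 and ND6 (complex I) are shown since the results below turn on them, the last being the only 1 of the 13 transcribed from the other strand.
CYTB, chrM:15099-15158 (+): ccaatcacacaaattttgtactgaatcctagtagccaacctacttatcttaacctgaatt
ND2, chrM:4670-4729 (+): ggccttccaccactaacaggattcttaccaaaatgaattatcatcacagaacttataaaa
ND3, chr1:24619613-24619672 (-): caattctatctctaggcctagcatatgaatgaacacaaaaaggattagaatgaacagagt
ND6, chrM:13552-13611 (-): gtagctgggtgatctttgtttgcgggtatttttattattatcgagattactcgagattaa

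In cells re-stimulated with Poly(I:C) 8 of the 13 mitochondrial transcripts were lower than in naive cells (61.5%, against 6.15% of all probes) and 7 lower than after acute Poly(I:C) (53.8%, against 3.49%). CYTB read 16.02, 15.81 and 15.92 in naive cells, 16.13, 15.60 and 15.69 after acute Poly(I:C) and 14.06, 14.01 and 14.48 after re-stimulation. The change was -1.74 ± 0.19 from naive (adjusted p = 0.00839) and -1.63 from acute (adjusted p = 0.0228), and re-stimulated Poly(I:C) samples lay below every other sample of the study. ND3 read 14.07, 14.32 and 14.31 in naive cells and 12.04, 11.96 and 13.16 after re-stimulation (-1.84, adjusted p = 0.0284). ND4L (-1.77), ND4 (-1.50), ATP8 (-1.49), ATP6 (-1.44), ND5 (-1.19) and COX3 (-0.99) were the others that fell, COX3 with an adjusted p of 0.0668 when the replicate number was a block. Of the 8, ND3, ND4L, ATP8, ATP6 and COX3 were read by probes placed on chromosome 1 (5), and the other 3 by probes placed on the mitochondrial genome. ND1 (-1.28), ND2 (-1.09), COX2 (-0.52), COX1 (+0.31) and ND6 (+0.02) did not pass. The median of the 13 was -1.28, and -0.998 with 75th percentile scaling. Over the arrays it was -1.52, -1.56 and -1.04, while the median of the 122 nuclear probes on the same arrays was -0.14, -0.17 and 0.06. Leaving out 1 array gave 1 to 10 calls against naive and 0 to 10 against acute, the lowest without replicate 1 of re-stimulated Poly(I:C).

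LPS gave another order. After acute LPS 4 mitochondrial transcripts were higher than in naive cells (30.8%, against 13.5% of all probes) and 0 lower: ND2 (+2.19), COX1 (+1.43), ND5 (+1.42) and ND1 (+0.92). ND2 read 14.13, 13.91 and 14.65 in naive cells, 16.57, 16.13 and 16.55 after acute LPS and 13.44 and 13.03 after re-stimulation. From acute to re-stimulated LPS 11 of the 13 fell (84.6%, against 17.3%) with ND2 at -3.18 (adjusted p = 0.000540), and 1 rose, ND6 (+0.80, adjusted p = 0.0443). The nuclear members moved up over the same comparison (median 0.23), and the mitochondrial ones down (median -1.15). All of these rest on the acute LPS arrays, which had slides of their own, and with all 27 arrays and 75th percentile scaling 2 of the 13 passed. Against naive cells, where slides were shared, re-stimulated LPS had 1 lower transcript (ND3, -0.88), or 7.69% against 4.15% of all probes. Re-stimulated CpG had 1 (CYTB, -0.85), or 7.69% against 8.45%, and re-stimulated Pam3CSK4 0, against 4.01%, with medians of -0.58, -0.47 and -0.34, which moved to -0.18, 0.03 and 0.18 with 75th percentile scaling. After acute CpG, Pam3CSK4 and Poly(I:C) 0 mitochondrial transcripts passed, and their deposited medians of -0.25, -0.18 and -0.11, which moved to 0.11, 0.06 and 0.14 with that scaling, lay beside -0.25, -0.15 and -0.21 for the 122 nuclear probes. The difference between the mitochondrial and the nuclear transcripts was not tested in any comparison.

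**Figure D5:**
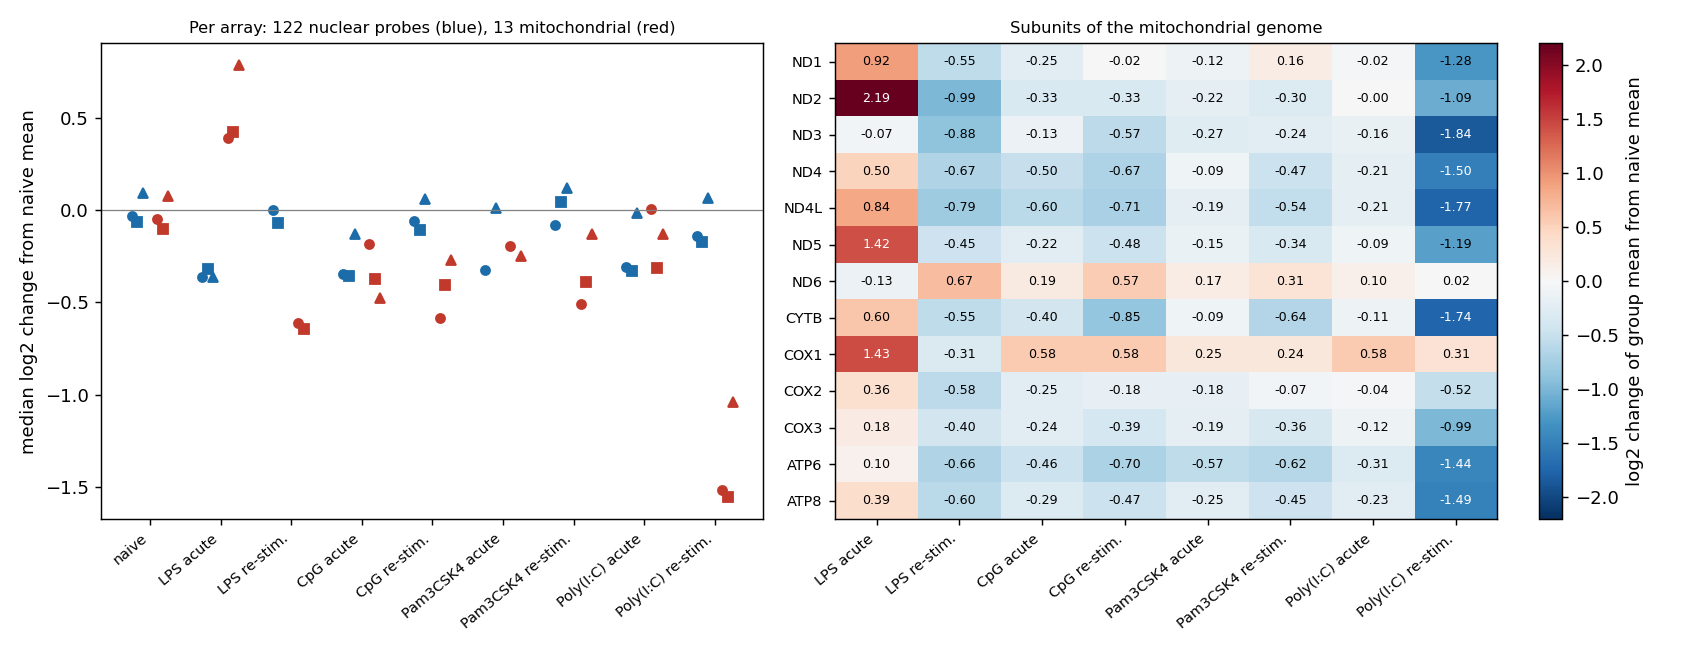
Left, median log2 change from the naive mean on each array for the 122 nuclear probes (blue) and the 13 mitochondrial probes (red). Right, log2 change of each mitochondrial transcript from naive for the 8 stimulated groups; re-stimulated Poly(I:C) has the lowest values for CYTB, ND3 and ND4L, and acute LPS the highest for ND2 (2.19).

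Whether the second response differed between ligands was tested directly. The comparisons of re-stimulated Poly(I:C) with re-stimulated CpG and Pam3CSK4 were added after the data were seen, so calls in them are not independent of that choice. Between re-stimulated groups 0 members differed for LPS against CpG (0.433% of 19862 probes did), Pam3CSK4 (1.42% of 19566) and Poly(I:C) (0.936% of 20087). At an unadjusted p below 0.05 were 3, 2 and 4 members. For Poly(I:C) against CpG 0 differed (2.01% of 20481), with 7 at an unadjusted p below 0.05. That count rested on the arrays: 1 member was higher and 2 lower without replicate 3 of both groups. Leaving out 1 array gave 0 to 7 calls there. For LPS against Poly(I:C) 1 was higher and 1 lower without replicate 3 of both groups. The members' share stayed below that of the array in both. For Poly(I:C) against Pam3CSK4, where 3.35% of 20287 probes were higher and 1.05% lower, 1 member passed: Cox6a2 was higher by 2.98 ± 0.39 (adjusted p = 0.0119), a call lost in 2 of 15 alternatives, without replicate 1 of either group (adjusted p = 0.0516 and 0.0582). Without replicate 3 of both groups 2 members were higher and 7 lower in that comparison, against 13.4% and 12.9% of all probes, and leaving out 1 array gave 0 to 5 calls. Its change against re-stimulated CpG was +1.75 (adjusted p = 0.0862), and that of LPS against Poly(I:C) was -2.18 (adjusted p = 0.0999). CYTB was lower in Poly(I:C) than in Pam3CSK4 (-1.10, adjusted p = 0.0421, or 0.0637 with the replicate block) and at -0.88 against CpG (adjusted p = 0.0768). The changes from acute to re-stimulated cells, compared between CpG, Pam3CSK4 and Poly(I:C) as an interaction in 1 fit of 9 groups, gave 0 members for CpG against Pam3CSK4 (0.00% of 20502), CpG against Poly(I:C) (0.0423% of 21268) and Pam3CSK4 against Poly(I:C) (0.146% of 21232). For Cox6a2 the change with Pam3CSK4 minus that with Poly(I:C) was -3.00 ± 0.69 (adjusted p = 0.0826).

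Assembly factors, the proteins that build the complexes but are not part of them, had medians above 0 in re-stimulated against acute cells. From acute to re-stimulated LPS 11 of 40 probes were higher (27.5%, against 21.1% of all probes) and 3 lower (7.50%, against 17.3%), with a median of 0.49, the higher ones including Sdhaf1, which helps to mature Sdhb (+1.83, adjusted p = 0.00152), Ecsit of the complex I assembly machinery, which also acts in TLR signalling (+1.80), and Tmem126b of the same machinery (+1.30). Most probes of the list had higher means for the other ligands too: 37 of 39 with CpG (median 0.39), 33 of 38 with Pam3CSK4 (0.35) and 33 of 40 with Poly(I:C) (0.47). Of these, 1 passed higher with CpG (2.56%, against 2.32% of all probes), a dim probe of the copper chaperone Cox17 (adjusted p = 0.0441, or 0.0604 with the replicate block), 0 with Pam3CSK4 and 3 with Poly(I:C) (7.50%, against 3.58%): Sdhaf1 (+1.53, adjusted p = 0.0334), 1 of the 3 probes of Ttc19 of complex III (+1.04) and Ndufaf3 of complex I (+0.82). Tmem126b read 9.33, 9.07 and 8.71 in naive cells and 7.68, 7.59 and 7.36 after acute LPS (-1.49, adjusted p = 0.00484), and was lower after acute CpG (-1.06) and acute Poly(I:C) (-1.02, adjusted p = 0.0465, or 0.0799 with the replicate block) as well.

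Cytochrome c and the related genes outside the name rule gave 6 probes. Atpif1, the inhibitor of the ATP synthase, was lower in re-stimulated LPS (-0.94), CpG (-0.71) and Poly(I:C) cells (-0.70) than in naive cells, with an adjusted p of 0.0690 for Poly(I:C) when the replicate number was a block, and with 75th percentile scaling none of these passed (-0.58, -0.21 and -0.40). Ndufab1, the mitochondrial acyl carrier protein and a complex I subunit, was higher in re-stimulated than in acute LPS (+1.02, adjusted p = 0.00917). Both Cycs probes were between +0.49 and +1.08 of naive in the 8 stimulated groups, and none passed. AA467197 (Nmes1), a small protein that can take the place of Ndufa4 in complex IV, read 11.00, 10.98 and 8.02 in naive cells and 15.58, 15.96 and 11.14 after Poly(I:C) re-stimulation (+4.23, adjusted p = 0.12), with replicate 3 low in both groups. Ndufa4 itself was at -0.60 in that comparison (adjusted p = 0.27).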

How the data were processed

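RNA of 27 cultures was labelled with Cy3 and hybridised to Agilent one-colour mouse arrays, scanned with Feature Extraction 10.7.3.1 (probe positions in mm9). The deposited values are log2 levels made by the authors with limma after RMA background correction and quantile normalization, for 55681 probes on 25 arrays. The columns of 2 arrays, re-stimulated LPS replicate 3 and acute Pam3CSK4 replicate 2, were empty and were not used, except in 1 alternative built from the scanner files. The deposited scanner files gave each spot's intensity, its well-above-background mark and its slide.

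Probes that Feature Extraction marked well above background, on 2 or more arrays of a group compared, were tested in 2-group fits with limma 3.58.1 in R 4.3.3 (lmFit and eBayes), adjusted by Benjamini-Hochberg over all probes tested. A probe passed with an adjusted p below 0.05 and a change of at least 1.5-fold. Error terms are SE of the log2 change unless named SD. Interactions came from 1 fit of 9 groups. The fits were tested on simulated data. Genes were named where they were core subunits or isoform pairs, or had the largest changes among called probes of a complex or related list whose groups did not overlap. For genes named by the latter rule the absence of overlap was a condition of the choice and not a result. The share of all probes without overlap is not given here. Where a gene outside this rule is named, to complete a list of calls or for its range, it was chosen after its values were seen. The members and lists were chosen with earlier results of these data known.

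Alternatives were 75th percentile scaling of the scanner signal, normexp with quantile normalization, all 27 arrays, no detection filter, no fold minimum, a replicate block, slide as a random block and 1 fit of 9 groups, besides leaving out each array. Same-numbered samples shared a slide outside acute LPS, and their deviations from the group means correlated over 22944 probes: 0.28 to 0.37 for acute CpG and naive, 0.38 to 0.48 for acute Poly(I:C) and naive, 0.22 to 0.43 for re-stimulated and acute CpG, 0.32 to 0.48 for re-stimulated and acute Poly(I:C), 0.17 to 0.29 for re-stimulated Pam3CSK4 and naive and 0.20 to 0.30 for re-stimulated Poly(I:C) and naive. They ran from 0.49 to 0.54 for acute Pam3CSK4 and naive and from 0.10 to 0.30 for re-stimulated CpG and naive. For re-stimulated LPS they were 0.07 to 0.08 with naive and 0.11 to 0.23 with re-stimulated CpG. They were 0.03 to 0.05 for re-stimulated LPS and Pam3CSK4 and -0.08 to 0.27 for re-stimulated LPS and Poly(I:C). In the comparisons with acute LPS the correlations ran from 0.02 to 0.12. The number of arrays limits the precision. P-values measure the spread between cultures.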

Additional observations from a re-analysis of the deposited data

How the results depend on the processing

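Counts of members passed and their median changes moved with the scaling, the arrays left out, the detection filter and the form of the fit. With 75th percentile scaling, both with 25 and with all 27 arrays unless given apart, the medians against naive were -0.0034 for acute LPS, 0.17 for acute CpG, 0.13 for acute Pam3CSK4 (-1.06 with 27), 0.0807 for acute Poly(I:C), and 0.36 (-0.18 with 27), 0.42, 0.44 and 0.17 for re-stimulated LPS, CpG, Pam3CSK4 and Poly(I:C). Without naive replicate 3 as well they were 0.0163, 0.20, 0.15, 0.10, 0.39, 0.46, 0.48 and 0.21. The median of re-stimulated minus acute was 0.32 for LPS (-0.25 with 27), and 1.504 for Pam3CSK4 with 27. Between re-stimulated groups it was 0.18 for LPS against Poly(I:C) (-0.36 with 27), -0.63 and -0.67 with 27 for LPS against CpG and Pam3CSK4, and -0.27 and -0.30 for Poly(I:C) against CpG and Pam3CSK4. The cause was not tested. With 27 arrays Ndufb8 stood at -0.0638 in re-stimulated against acute LPS.

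With that scaling 5 members passed for acute LPS, 1 for acute Poly(I:C), 8 for re-stimulated LPS against naive (0 with 27), 26 for CpG and 14 for Pam3CSK4, and 0 (mitochondrial transcripts 2) with 27 for re-stimulated against acute LPS. Without naive replicate 3 as well the counts against naive were 7 and 1 for acute LPS and Poly(I:C), 23, 33 and 32 for re-stimulated LPS, CpG and Pam3CSK4, and 5 mitochondrial transcripts for Poly(I:C). For Pam3CSK4 31 of these were higher (25.4%, against 13.8% of all probes) and 1 lower (0.820%, against 10.3%). In the other 7 comparisons of that setting the members' share, both directions together, was below that of all probes. For the remaining settings such shares are summed up at the end of this section. With normexp and quantile normalization 1 passed for re-stimulated against acute CpG, 5 for Poly(I:C), 4, 1 and 8 for re-stimulated LPS, Pam3CSK4 and Poly(I:C) against naive, and 2 for Poly(I:C) against Pam3CSK4. With no detection filter the counts were 5, 1 and 0 for acute LPS, CpG and Poly(I:C), 7 and 1 for re-stimulated against acute LPS and Poly(I:C) (mitochondrial 1 for Poly(I:C)), and 0, 0 and 2 for re-stimulated LPS, CpG and Poly(I:C) against naive.

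With the replicate block 6 passed for acute LPS and 1 for acute CpG, 3, 1 and 2 for re-stimulated LPS, CpG and Poly(I:C) against naive, and 2 for LPS against Poly(I:C); other counts stayed within 1.5 times. With slide as a random block 6, 1 and 4 passed for acute CpG, Pam3CSK4 and Poly(I:C), 4, 4 and 8 for re-stimulated against acute CpG, Pam3CSK4 and Poly(I:C), 6, 8, 4 and 13 for re-stimulated LPS, CpG, Pam3CSK4 and Poly(I:C) against naive, 1 and 3 for LPS against Pam3CSK4 and Poly(I:C), 3 and 8 for Poly(I:C) against CpG and Pam3CSK4, and 2 for the interaction of Pam3CSK4 and Poly(I:C). In 1 fit of 9 groups the counts were 4 and 1 for acute CpG and Pam3CSK4, 2 and 7 for re-stimulated against acute CpG and Poly(I:C), 4, 8, 3 and 11 against naive, 1 and 1 for LPS against Pam3CSK4 and Poly(I:C), and 3 and 5 for Poly(I:C) against CpG and Pam3CSK4. Without replicate 3 of both groups, chosen after seeing the data, 1 and 5 passed for acute Pam3CSK4 and Poly(I:C), 11 for re-stimulated against acute Poly(I:C), 4, 5, 2 and 13 against naive, 2 for LPS against Poly(I:C) (median 0.18), and 3 and 9 for Poly(I:C) against CpG and Pam3CSK4.

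Leaving out each array gave 2 to 19 calls for acute LPS, 0 to 3 for acute CpG and acute Poly(I:C), 2 to 15 for re-stimulated against acute LPS (mitochondrial 5 to 10), 0 to 3 for CpG, 0 to 8 for Poly(I:C) (mitochondrial 0 to 10), 0 to 4, 0 to 8, 0 to 1 and 1 to 9 for re-stimulated LPS, CpG, Pam3CSK4 and Poly(I:C) against naive (mitochondrial 1 to 10 for Poly(I:C)), 0 to 2 for LPS against Poly(I:C), 0 to 7 and 0 to 5 for Poly(I:C) against CpG and Pam3CSK4, and 0 to 3 for the interactions of CpG and of Pam3CSK4 with Poly(I:C). The most calls came without replicate 3 of naive or of a Poly(I:C) group in the comparisons of acute LPS and of Poly(I:C). The median for acute Pam3CSK4 ran from -0.33 to 0.0102, the latter without replicate 1, and that of LPS against Poly(I:C) from 0.0208 to 0.18.

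The members' share of calls in both directions together was below that of all probes tested in 248 of 311 pairs of a comparison and an alternative, with no call of either in 61. It was above it in 2, for re-stimulated Pam3CSK4 against naive without naive replicate 3 and with 75th percentile scaling (25.4% higher and 0.820% lower, against 13.8% and 10.3%) and for the interaction of Pam3CSK4 and Poly(I:C) with slide as a random block (0 and 1.64%, against 0.655% and 0.937%). Adding the directions can hide an excess in 1 of them. With 75th percentile scaling alone 21.3% of members were higher in re-stimulated CpG against naive and 0 lower, against 14.4% and 11.2% of all probes. For re-stimulated Pam3CSK4 these were 11.5% and 0, against 8.76% and 6.95%.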

Other observations

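Regulators of the chain and Krebs cycle enzymes were read from lists of their own. Of the regulator probes, 4 of 20 were higher and 2 lower after acute LPS (20.0% and 10.0%, against 13.5% and 17.3% of all probes), and 1 of 19, 3 of 20, 1 of 19 and 3 of 20 were higher and 0 lower in re-stimulated LPS, CpG, Pam3CSK4 and Poly(I:C) against naive, where 4.54%, 7.97%, 3.57% and 5.75% of all probes were higher. The probes of Gabpb1, a subunit of the ETS-type factor GABP, disagreed in size. The probe with a naive mean of 5.47 was higher than in naive cells after acute LPS (+1.48), CpG (+1.87) and Poly(I:C) (+0.95) and in cells given LPS again (+2.02), CpG again (+2.08), Pam3CSK4 again (+1.69) or Poly(I:C) again (+1.51). Another, with a naive mean of 10.21, passed after acute LPS (+0.84) and in re-stimulated Poly(I:C) (+0.70) and was between +0.14 and +0.68 in the other groups, and the remaining probe passed in re-stimulated CpG (+1.19). Ppargc1b, a coactivator of mitochondrial genes, read 4.34, 4.60 and 5.23 in naive cells, 8.06, 8.34 and 6.95 after acute LPS and 5.59 and 5.24 after LPS re-stimulation. It passed higher after acute LPS (+3.06, adjusted p = 0.00408) and lower from acute to re-stimulated LPS (-2.37). Of 18 Krebs cycle probes, 1 passed after acute LPS, 1 of the 2 fumarase probes Fh1 (-0.79, adjusted p = 0.0328), where 17.3% of all probes were lower, 1 in re-stimulated LPS against naive, Suclg2 (-1.01, adjusted p = 0.0364), where 4.15% were, and 1 in re-stimulated Poly(I:C) against naive, the isocitrate dehydrogenase Idh2 (-1.40, adjusted p = 0.0421, or 0.0559 with the replicate block), where 6.15% were. Idh2 read 12.85, 13.28 and 13.08 in naive cells and 11.20, 11.54 and 12.28 after Poly(I:C) re-stimulation.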
